A study of Mus musculus with 16 samples.

Results

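Erythroid, megakaryocytic and basophilic progenitors are directed by a small set of nuclear factors that bind DNA together. Here 10 genes of that set were followed: Gata1, Gata2, Klf1, Tal1, Zfpm1, Nfe2, Gfi1b, Lmo2 and Fli1, which encode transcription factors or their cofactors, and Epor, which encodes the erythropoietin receptor. They were taken by symbol from the 27998 genes of the deposited gene tables, and all 10 were found in each of the 8 single-cell libraries. Their levels were described across 6 progenitor classes defined by other genes, and were compared between 4 groups of mice.

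All mice were C57BL/6 animals, aged 6 to 12 weeks by the labels, while the study's methods give an older lower bound. WT mice carried the floxed allele without a stated Cre (Tet2 fl/fl), and Tet2-KO mice were Vav-Cre-Tet2-/-, in which Cre is driven in the whole blood system by the Vav promoter. Each genotype received intraperitoneal recombinant IL1β at 500 ng per mouse per day, or vehicle, for 5 weeks. Any effect of Cre itself cannot be told apart from loss of Tet2. Marrow was treated to lyse red cells and depleted of lineage-positive cells, the cells of each mouse were labelled with a hashtag antibody, and equal volumes of 2 mice of a group were pooled for one 3′ gene expression library. Each group thus held 4 mice in 2 libraries, 16 mice in all.

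GATA2 is known to act in stem and progenitor cells and in mast cells and basophils, and is replaced by GATA1 as erythroid and megakaryocytic cells mature. Both form complexes with TAL1, LMO2 and LDB1 on DNA. FOG1, the product of Zfpm1, binds GATA1 and is needed for red cell and platelet lineages, and its loss favours basophil and mast cell genes. KLF1 and FLI1 are known to oppose each other, KLF1 in the erythroid and FLI1 in the megakaryocytic direction. GFI1B is a repressor that recruits the histone demethylase LSD1, and NFE2 is a leucine zipper factor of platelet formation and globin expression.

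The deposited libraries held 121405 barcodes, of which 94917 passed limits of at least 750 genes and at most 10% mitochondrial unique molecular identifiers (UMIs). Library depth in these cells was 52915002 to 95326908 UMIs, with medians of 4436 to 7363 UMIs per cell. Hashtags placed 57896 cells with 1 mouse and marked 3938 as doublets of 2 mice, while 33083 cells received no call, 14.3% to 49.8% of a library. Between 11 and 57 barcode sequences were shared by any pair of libraries. Tet2 UMIs from the 3′ end do not report on the deleted part of the gene and so checked nothing. In the HSC-like gate they averaged 45.0 ± 8.84 (SD, n = 4) scaled counts (CPM, UMIs scaled to a common library total) in WT and 61.0 ± 16.4 in Tet2-KO mice with vehicle.

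Cells were gated by how many genes of a fixed marker list had at least 1 UMI, and no member was a marker. The HSC-like gate required 2 of 10 markers such as Hlf and Mecom, the MEP-like gate 4 of 10 such as Apoe and Muc13, and the CFU-E-like gate 6 of 10 such as Car1 and Ermap. The erythroblast-like gate required 4 of 8 such as Epb42, the megakaryocyte-like gate 4 of 10 such as Pf4 and Gp9, and the basophil-like gate 5 of 8 such as Mcpt8 and Prss34. They held 2306, 2541, 4397, 1782, 1068 and 4002 assigned cells, respectively. The HSC-like gate was not a pure stem cell class, since Flt3 and Mpo, genes of later progenitors, had medians of 126 and 687 CPM in it. The erythroblast-like cells were early, with a median of 20.1 CPM for Alas2, the erythroid enzyme that starts heme synthesis. Because a gate counts detected genes, its cells differ in depth: medians were 2924 UMIs in HSC-like, 3674 in MEP-like, 10493 in CFU-E-like, 11989 in erythroblast-like, 6898 in megakaryocyte-like and 2752 in basophil-like cells. Depth also differed between groups within a gate, and its part in the results was not tested. With vehicle and IL1β, HSC-like medians were 3116 and 2898 UMIs in WT and 2508 and 3226.5 in Tet2-KO mice. CFU-E-like medians were 10408 and 9101 in WT and 10691 and 12093 in Tet2-KO mice.

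Upstream sequences were read for the members because Tal1 and Zfpm1, whose products each act with GATA1, moved in opposite directions below. RefSeq promoters of mouse build GRCm38.p6 matched 7 of the 10 members, with 9 starts among them. Nfe2, Lmo2 and Fli1 had no entry. Shown are the 250 bases before both annotated starts of Tal1, on the plus strand at chr4:115056176-115056425 and chr4:115057561-115057810, before the start of Zfpm1 at chr8:122281891-122282140 (plus strand), and before the first start of Gata2 at chr6:88193641-88193890 (plus strand). Capitals mark GATA letters (AGATAA, with T in first place also TGATAA, and with G in last place AGATAG as well as TGATAG) and KLF letters (CCNCNCCC) on either strand, and KLF matches may overlap each other.
Tal1, first start: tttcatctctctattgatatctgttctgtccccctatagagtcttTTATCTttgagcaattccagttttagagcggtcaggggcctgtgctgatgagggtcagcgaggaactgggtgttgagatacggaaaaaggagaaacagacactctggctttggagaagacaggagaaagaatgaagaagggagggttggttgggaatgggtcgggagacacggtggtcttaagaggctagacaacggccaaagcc
Tal1, second start: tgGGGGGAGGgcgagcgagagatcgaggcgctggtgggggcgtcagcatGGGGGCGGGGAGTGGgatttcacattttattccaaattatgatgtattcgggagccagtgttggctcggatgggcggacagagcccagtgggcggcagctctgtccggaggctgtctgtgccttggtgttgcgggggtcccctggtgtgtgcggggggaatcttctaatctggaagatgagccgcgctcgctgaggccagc
Zfpm1: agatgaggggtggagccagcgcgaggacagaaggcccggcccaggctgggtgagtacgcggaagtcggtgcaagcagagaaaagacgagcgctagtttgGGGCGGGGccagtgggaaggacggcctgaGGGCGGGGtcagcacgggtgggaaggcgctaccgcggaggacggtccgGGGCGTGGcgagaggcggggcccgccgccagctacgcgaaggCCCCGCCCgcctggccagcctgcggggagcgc
Gata2, first start: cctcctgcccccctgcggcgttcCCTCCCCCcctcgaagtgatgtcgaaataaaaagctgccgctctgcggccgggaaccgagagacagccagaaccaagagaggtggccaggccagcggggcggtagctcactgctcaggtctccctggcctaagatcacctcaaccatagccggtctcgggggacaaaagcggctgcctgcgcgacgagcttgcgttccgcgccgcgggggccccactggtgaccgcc

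The first Tal1 start held 1 GATA match, whose first base lay 205 bases upstream, and 0 KLF matches. The second Tal1 start held 0 GATA and 4 KLF matches, Zfpm1 0 GATA and 4 KLF matches, and the first Gata2 start 0 GATA and 1 KLF match. The second Gata2 start, not shown, held 0 GATA and 6 KLF matches, and overlapped an annotated exon. Its KLF matches from 202 to 198 bases upstream overlap within a single run of G, and the remaining match lies 76 bases upstream. Among all 9 member starts, 4 held a GATA and 7 a KLF match in these 250 bases, against 26.5% and 45.9% of 32851 promoters in the reference table. A match is a description of letters and not a bound site.

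Levels across the gates were described first, as means of CPM over mice, and were not tested because all gates were cut from the same cells. Gata1, the master factor of red cells and platelets, averaged 137 ± 15.9 CPM (SD, n = 15 mice) in the erythroblast-like gate and 119 ± 15.5 (n = 16) in the CFU-E-like gate. It was 83.5 ± 22.6 CPM in megakaryocyte-like, 72.7 ± 16.6 in MEP-like, 40.8 ± 10.0 in basophil-like and 14.4 ± 11.6 in HSC-like cells. Ranges of mice overlapped between each neighbouring pair of gates in this order, although all 15 mice with both gates were higher in the erythroblast-like than in the CFU-E-like gate. Gata2 ran a different course. It reached 1298 ± 243 CPM in the basophil-like gate, where the lowest of 16 mice (913 CPM) lay above the highest MEP-like value (478 CPM). It averaged 370.0 ± 62.9 CPM in MEP-like, 218 ± 74.4 in megakaryocyte-like, 201 ± 78.8 in HSC-like, 51.6 ± 16.3 in CFU-E-like and 26.3 ± 8.33 in erythroblast-like cells.

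Tal1 was spread over the erythroid and megakaryocytic gates, with 217 ± 52.0 CPM in erythroblast-like, 206 ± 34.2 in megakaryocyte-like, 166 ± 37.2 in CFU-E-like, 143 ± 33.4 in MEP-like, 92.1 ± 26.5 in HSC-like and 69.1 ± 26.7 in basophil-like cells. Erythroblast-like and megakaryocyte-like levels did not separate, since 8 of 15 mice were higher in the former. Its partner Lmo2, a bridging protein without DNA contact of its own, was found in every gate, from 88.7 ± 87.9 CPM in T/NK cells, 91.4 ± 36.1 in neutrophil-like and 112 ± 22.7 in basophil-like to 541 ± 88.9 in HSC-like cells. Zfpm1 averaged 349.8 ± 49.5 CPM in megakaryocyte-like, 248 ± 28.4 in erythroblast-like, 203 ± 43.0 in MEP-like, 191 ± 22.9 in CFU-E-like and 74.4 ± 34.0 in HSC-like cells. In the basophil-like gate it was 19.7 ± 9.01 CPM, against 46.6 ± 30.4 in a T/NK gate. Gfi1b followed Gata1, from 109 ± 13.2 CPM in erythroblast-like to 27.3 ± 12.0 in HSC-like cells.

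Klf1 and Epor marked the erythroid gates. Klf1 averaged 231 ± 13.5 CPM in erythroblast-like and 179 ± 12.2 in CFU-E-like cells without overlap of mice, then 62.0 ± 23.9 in the MEP-like gate, and at most 9.09 CPM in the other 7 gates. Epor averaged 97.2 ± 12.8 CPM in erythroblast-like and 85.1 ± 10.3 in CFU-E-like cells, and each CFU-E-like value lay above the highest MEP-like value (44.4 CPM, mean 26.6 ± 8.78). Fli1 was the reverse of Klf1. It averaged 368 ± 69.8 CPM in the megakaryocyte-like gate, with the lowest mouse (231 CPM) above the highest basophil-like mouse (202 CPM). Single mice reached 289 CPM in the HSC-like and 239 in the MEP-like gate. Means were 136 to 156 CPM in HSC-like, MEP-like and basophil-like cells, and 11.3 ± 6.25 CPM in CFU-E-like and 10.1 ± 7.03 in erythroblast-like cells. Nfe2 did not separate the HSC-like, basophil-like, MEP-like and megakaryocyte-like gates (means of 160.4 to 176 CPM), and was 55.5 ± 12.0 CPM in CFU-E-like and 56.5 ± 10.96 in erythroblast-like cells.

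**Figure D1:**
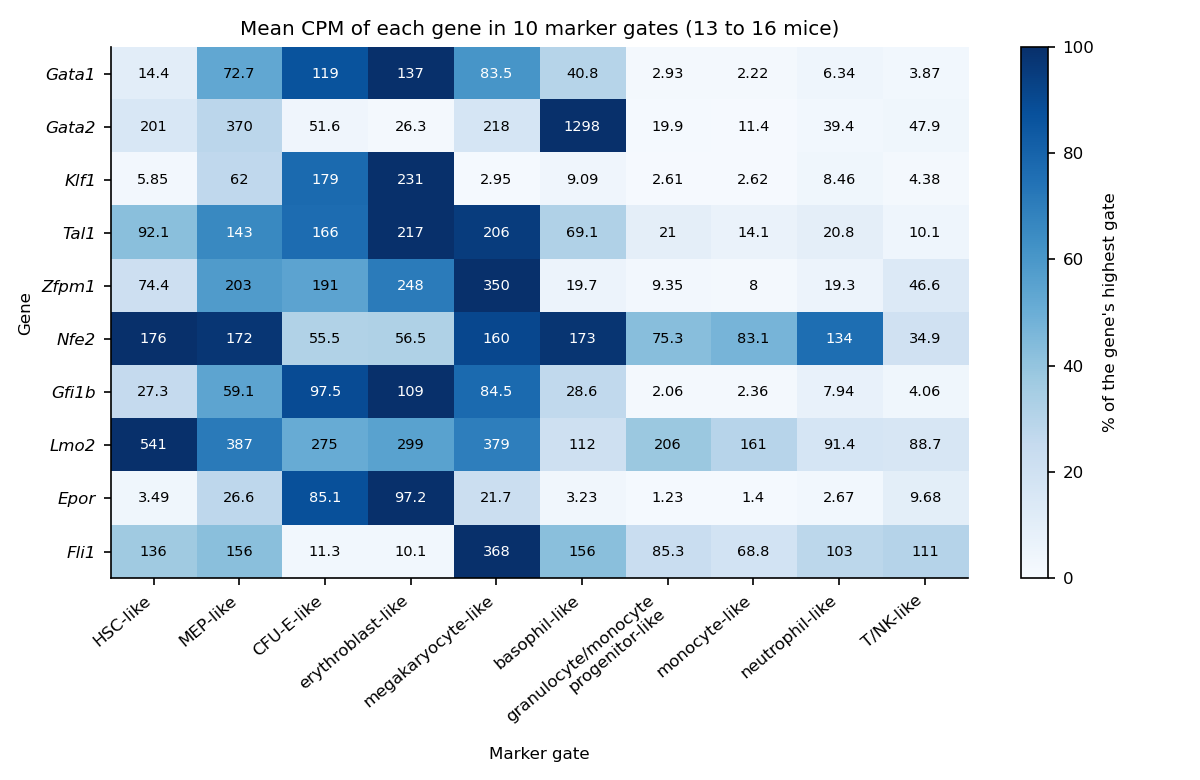
Mean CPM of each member (rows) in 10 marker gates (columns), with the mean over mice printed in each cell and colour giving the percent of that gene's highest gate. Klf1 and Epor are highest in the erythroblast-like and CFU-E-like columns, Fli1 and Zfpm1 in the megakaryocyte-like column, Gata2 in the basophil-like column and Lmo2 in the HSC-like column.

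Shares of cells with at least 1 UMI gave the same picture once each cell had been thinned to 2000 UMIs, with shallower cells left out. Intervals on these shares are 95% Wilson intervals that cover counting error only. Klf1 was seen in 36.8% (34.6 to 39.0) of erythroblast-like, 29.8% of CFU-E-like and 9.76% of MEP-like cells, against 0 of 169 T/NK cells, with an interval up to 2.22%. Before thinning the erythroblast-like share was 91.4% and that of T/NK cells, which should lack the gene and had a median of 1900.0 UMIs, was 1.26%. Gata1 was seen in 23.5% of erythroblast-like, 19.6% of CFU-E-like, 14.7% of megakaryocyte-like, 14.5% of MEP-like, 8.66% of basophil-like and 0% of T/NK cells, and before thinning in 77.0%, 66.8%, 45.1%, 25.5%, 12.7% and 0.503%. Gata2 was seen in 89.3% (88.1 to 90.3) of basophil-like cells (95.8% before thinning) and 8.28% (5.00 to 13.4) of T/NK cells (8.04% before). Its share was 9.98% (9.13 to 10.9) of CFU-E-like and 4.49% of erythroblast-like cells, and 34.8% and 21.3% before thinning. Other classes gave 1.75% of monocyte-like, 3.81% of granulocyte/monocyte progenitor-like and 4.67% of neutrophil-like cells, so the CFU-E-like share was above those and within the T/NK interval, while the erythroblast-like share was not above all of them. The Zfpm1 share of basophil-like cells, 3.46% (5.42% before thinning), was below the T/NK share of 9.47% (9.55% before) but above those of monocyte-like (1.41%) and granulocyte/monocyte progenitor-like cells (1.89%). Lymphocytes are known to express Fli1, so its T/NK share of 21.3% is no background, and its lowest share was 1.40% (0.953 to 2.06) of erythroblast-like cells (8.36% before thinning), against 51.2% of megakaryocyte-like cells (87.0% before).

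Detection of a pair of factors in the same cell was counted for genes known to replace or oppose each other. At 2000 UMIs, Gata1 and Gata2 were both seen in 7.69% of MEP-like, 7.86% of basophil-like, 1.57% of CFU-E-like and 1.18% of erythroblast-like cells. Gata2, with or without Gata1, was seen in 49.5%, 89.3%, 9.98% and 4.49% of these cells. Klf1 and Fli1 were both seen in 1.55% of MEP-like and 0.379% of megakaryocyte-like cells. Joint shares depend on detection at this depth and on how often each gene is seen by itself. No joint share expected from the single shares was computed. The joint shares give no count of cells that express both.

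For each member, the genes with the most similar pattern were found from mean log2(CPM + 1) over 40 points, 10 gates by 4 groups, among 10937 genes. The points share libraries, and the correlations are descriptions. Klf1 was most like Car1 and Atp1b2 (r = 0.98 for both), Fli1 most like Atp2a3 and Treml2 (r = 0.95 and 0.94), and Gata2 most like Slc18a2 and Slc22a3 (r = 0.95 and 0.91). Gata1, Gfi1b and Tal1 shared Sept8 (r = 0.95, 0.93 and 0.94), and Icam4 was next to Gata1 (r = 0.93) and first for Gfi1b (r = 0.94), while Fam109b was first for Tal1 (r = 0.95). Zfpm1 was most like Slc14a1 and Aldh1a1 (r = 0.93 and 0.90), Nfe2 like Ndrg1 and Pafah2 (both 0.91), Lmo2 like Nfix and Tgif2 (0.90 and 0.89), and Epor like Aqp1 and Zdhhc14 (0.90 and 0.89). Car1, Atp1b2, Icam4, Slc14a1 and Aqp1 were themselves gate markers.

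The effect of IL1β was then tested within each gate, in WT and in Tet2-KO mice, on UMI sums per mouse with edgeR's quasi-likelihood test and Benjamini-Hochberg adjustment over all genes of the gate. Levels are given below as scaled CPM, CPM over the mouse's tested genes in that gate after trimmed mean of M values (TMM) scaling, and n is 4 mice per group unless stated. In such sums, fewer cells that express a gene and less RNA per cell cannot be told apart. Members passed the filter on low counts in 54 of 60 pairs of gene and gate. Gata1, Klf1 and Epor did not in the HSC-like gate, Klf1 not in the megakaryocyte-like gate, and Klf1 and Epor not in the basophil-like gate.

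At an adjusted p under 0.05, IL1β was called in 4 of 54 member and gate pairs in WT mice, 3 higher and 1 lower, where 8.51% of all genes tested were called (3.32% higher and 5.2% lower). In Tet2-KO mice 7 of 54 pairs were called, 5 of them up and 2 down, beside 9.47% of all genes (3.6% higher and 5.87% lower). The median log2 fold change of the 54 pairs was 0.10 in WT and 0.13 in Tet2-KO mice, while those of all genes in single gates were 0.01 to 0.04 and 0.00 to 0.03. The calls fell on Tal1 (higher), Zfpm1 (lower), Gata2, Nfe2 and Fli1 (higher), and on none of the pairs of Gata1, Klf1, Gfi1b, Lmo2 and Epor. Scaling by total UMIs in place of TMM moved the median of all genes up by 0.05 to 0.13 and the share of their calls that were higher from 39.0% to 68.7% in WT and from 38.1% to 65.6% in Tet2-KO mice. The members' calls then split into 5 up and 0 down for WT, and 5 up and 2 down for Tet2-KO animals, beside 10.5% and 10.8% of all genes called. DESeq2 called 5 and 7 pairs, beside 6.82% and 6.72% of all genes.

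**Figure D2:**
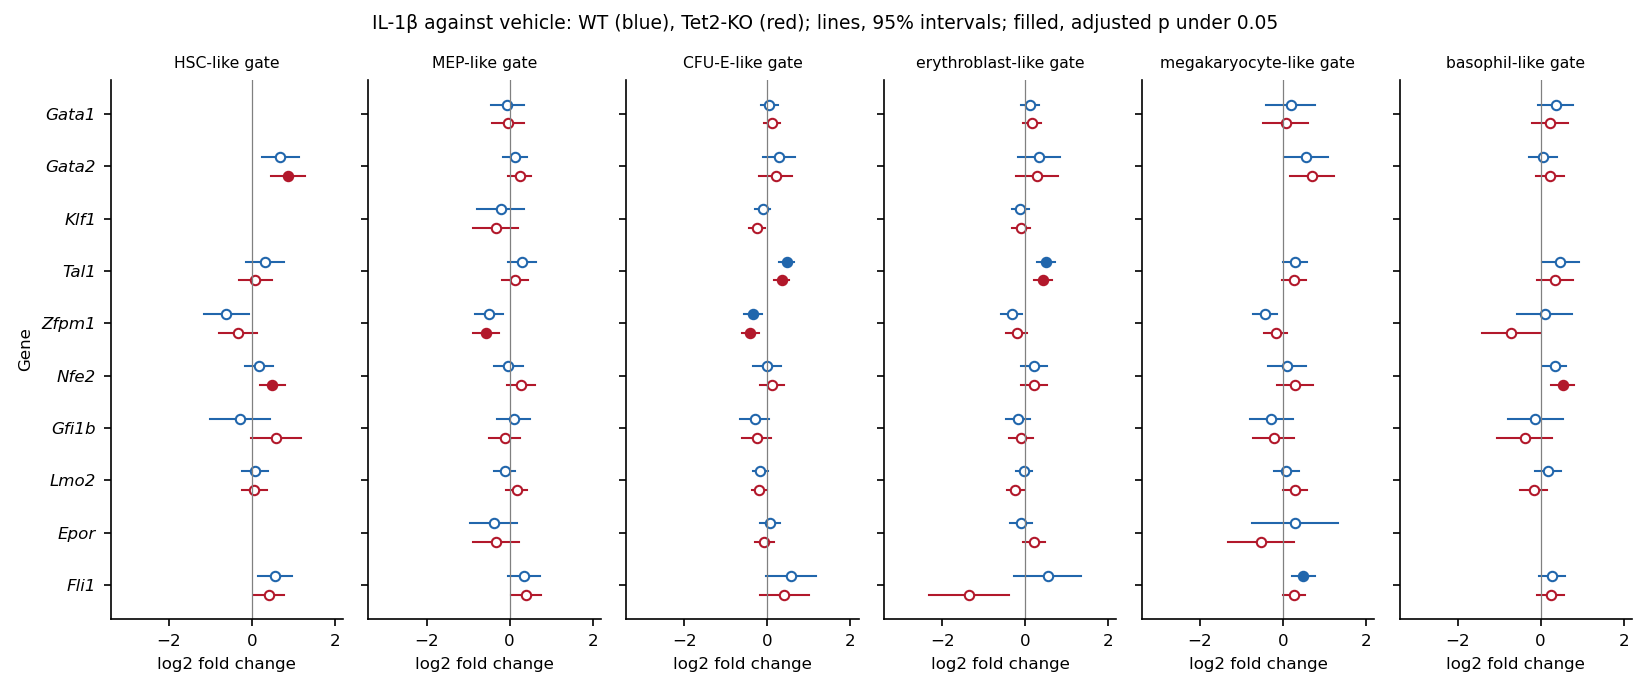
Log2 fold change of IL1β against vehicle for each member in 6 gates, with 95% intervals, WT in blue and Tet2-KO in red, and filled points for an adjusted p under 0.05 by edgeR. Tal1 lies above 0 in all 12 estimates and Zfpm1 below 0 in 11 of 12.

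Tal1, the helix-loop-helix factor of the erythroid complex, was higher with IL1β in both erythroid gates and both genotypes. In the CFU-E-like gate the WT vehicle mice had 149.8, 143, 130.4 and 151 scaled CPM and the WT IL1β mice 188, 188, 202 and 231. The groups did not overlap, and the log2 fold change was 0.47 (SE 0.0869, adjusted p = 0.00101, edgeR). In Tet2-KO mice the 4 vehicle values were 157, 135, 137 and 129, and the 4 IL1β values were 169, 185, 183 and 169.8. All IL1β mice again stood above all vehicle mice, with a log2 fold change of 0.34 (SE 0.0872, adjusted p = 0.0121). In this gate 15.5% of all genes were called in WT and 13.5% in Tet2-KO mice.

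In the erythroblast-like gate, Tal1 was 184, 231, 184 and 175 scaled CPM in WT vehicle mice and 248, 246, 283 and 293 in WT IL1β mice, a log2 fold change of 0.51 (SE 0.101, adjusted p = 0.00180). Tet2-KO vehicle mice had 189, 189, 153 and 171, and the 3 Tet2-KO IL1β mice with at least 10 such cells had 233, 232 and 231 (log2 fold change 0.43, SE 0.105, adjusted p = 0.0132). The fourth mouse of that group had 8 cells and was left out. No group overlapped its own control, and 12.9% of all genes in WT and 9.06% in Tet2-KO mice were called in this gate. In the other gates Tal1 did not pass, with log2 fold changes between 0.30 and 0.48 in WT and between 0.09 and 0.35 in Tet2-KO mice. Its estimates were above 0 in 12 of 12 pairs of gate and genotype with TMM. The gates share mice, and 12.0% of the 6148 genes tested in every gate were above 0 in all 12 with that scaling. With total UMIs the estimates were 0.18 to 0.64. That scaling moved the median of all genes up, so it could hardly lower the count.

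The WT calls for Tal1 held when any 1 mouse was left out. A rule that gives cells to a mouse by the ratio of the 2 hashtag counts took in more erythroid cells, left 14 of 16 mice in the CFU-E-like gate, and did not keep the same cells per mouse. In the libraries of mice 1 and 2 it kept with their mouse 1.78% of the cells assigned to WT vehicle mouse 1, 20.6% for WT IL1β mouse 1, 1.35% for Tet2-KO vehicle mouse 1 and 7.31% for Tet2-KO IL1β mouse 2, and 96.7% to 100% for the mice pooled with them. It gave 4 CFU-E-like cells to WT vehicle mouse 1 and 1561 to mouse 2, where the assignment used elsewhere gave 623 and 61. Values under this rule are therefore not a like-for-like comparison over the same mice. The mismatch also bears on the main assignment. Of the 4159 cells it gave WT vehicle mouse 1, 3893 had no 3-fold excess of either hashtag. For 4.62%, and 9.92% for Tet2-KO vehicle mouse 1, the excess was of the other mouse's hashtag. WT IL1β mouse 3, read as male, had 226 CPM of Xist, against 2487 in its female pool mate. WT vehicle mouse 2, also read as male, had 78.7, against 1386 in its female pool mate. The other males, none pooled with a female, had at most 0.517. Y-linked genes had 7.77 and 9.20 CPM in those female pool mates, and at most 0.387 in the other females. Sums of these mixed-sex libraries thus held transcripts of the pool mate's sex. Whether they came with its cells, and how far this touches the members, was not tested. Under the ratio rule, the CFU-E-like estimate for Tal1 was 0.30 in WT (adjusted p = 0.0853) and also 0.30 in Tet2-KO mice (adjusted p = 0.102). The Tet2-KO CFU-E-like call was lost without vehicle mouse 4 (adjusted p = 0.0689) or IL1β mouse 2 (0.0531), and the Tet2-KO erythroblast-like call without vehicle mouse 3 (0.0816), vehicle mouse 4 (0.0616) or IL1β mouse 2 (0.0667). Over pools both Tet2-KO calls for Tal1 were lost (adjusted p = 0.136 and 0.0874).

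Zfpm1, the gene of the GATA1 cofactor FOG1, was lower with IL1β. In the CFU-E-like gate the WT vehicle mice had 221, 206, 208 and 201 scaled CPM and the IL1β mice 182, 159, 154 and 162. The groups did not overlap (log2 fold change -0.35, SE 0.103, adjusted p = 0.0242). Tet2-KO vehicle mice had 225, 182, 241 and 246, and IL1β mice 188, 138, 193 and 179. These groups overlapped through vehicle mouse 2, and the log2 fold change was -0.41 (SE 0.103, adjusted p = 0.0116). With total UMIs the WT change was -0.22 and no longer called (adjusted p = 0.104).

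In the MEP-like gate Zfpm1 was 230.3, 217, 305 and 280.3 scaled CPM in Tet2-KO vehicle mice and 173, 151, 174 and 210.1 in Tet2-KO IL1β mice. Every IL1β value lay below every vehicle value (log2 fold change -0.57, SE 0.153, adjusted p = 0.0155), in a gate where 10.9% of all genes were called. WT vehicle mice had 242, 238, 242 and 228 and WT IL1β mice 207, 182, 154 and 104. The WT groups did not overlap, but the test did not pass (log2 fold change -0.49, adjusted p = 0.0801). The difference was called without WT IL1β mouse 1 (-0.65, adjusted p = 0.0342) and under the hashtag ratio rule (-0.66, adjusted p = 0.0237). In the erythroblast-like gate the changes were -0.32 in WT (adjusted p = 0.0800) and -0.20 in Tet2-KO mice (0.317), and in the megakaryocyte-like gate -0.42 (0.0759) and -0.18 (0.451). The WT values were called without IL1β mouse 2 in the first gate (adjusted p = 0.0498), without a low-count filter (0.0444), with 1 more marker (0.0378) and under the ratio rule (0.0162), and without vehicle mouse 1 (0.0470) or IL1β mouse 1 (0.0326) in the second. Zfpm1 estimates were below 0 in 11 of 12 pairs of gate and genotype under both scalings. With TMM, 22% of the 6148 genes tested in every gate were below 0 in at least 11.

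Each of the 3 Zfpm1 calls was lost when certain single mice were left out. The WT CFU-E-like call was lost without vehicle mouse 1 (adjusted p = 0.0898), IL1β mouse 2 (0.0582) or IL1β mouse 3 (0.0919), and the Tet2-KO call without vehicle mouse 3 (0.0516), vehicle mouse 4 (0.0604) or IL1β mouse 2 (0.0735). The MEP-like Tet2-KO call was lost without vehicle mouse 3 (0.105), vehicle mouse 4 (0.0668) or IL1β mouse 2 (0.0877), and with 1 more marker required per gate (0.0636). Over pools, both Tet2-KO calls for Zfpm1 were lost (adjusted p = 0.0699 in the CFU-E-like and 0.111 in the MEP-like gate).

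**Figure D3:**
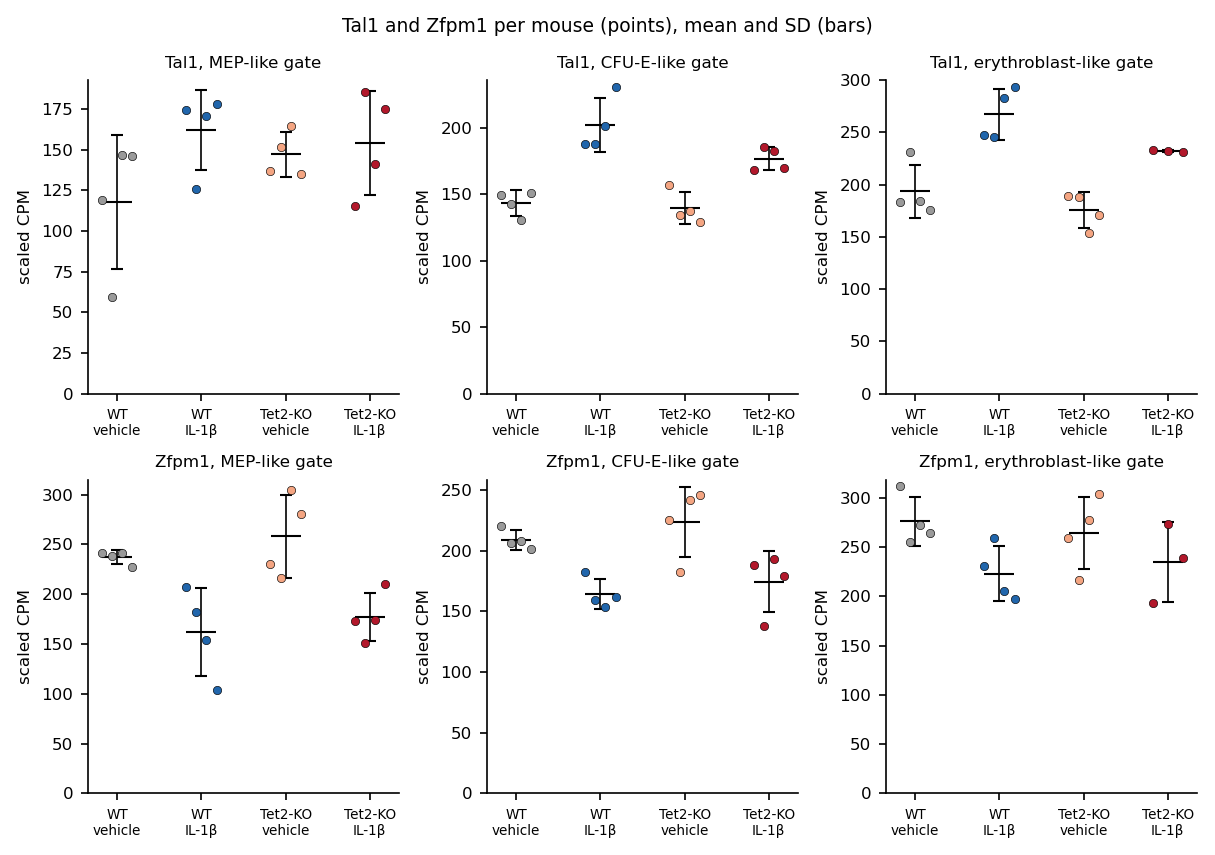
Scaled CPM of Tal1 (top) and Zfpm1 (bottom) in the MEP-like, CFU-E-like and erythroblast-like gates, 1 point per mouse by group, with mean and SD. In the CFU-E-like gate, Tal1 spans 130.4 to 151 in WT vehicle and 188 to 231 in WT IL1β mice, and Zfpm1 spans 201 to 221 and 154 to 182.

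Other cell markers moved with the groups in these gates, and their part in the Tal1 and Zfpm1 results was not tested. In the CFU-E-like gate the summed level of its own 10 markers was 7199.6 to 7924 CPM in WT vehicle and 5564 to 7294 in WT IL1β mice, and 6478 to 8729.9 and 6810.4 to 7924 in Tet2-KO mice. The mean number of these markers detected per cell was 8.09 to 8.41 per mouse in WT vehicle and 7.72 to 7.80 in WT IL1β mice, without overlap, and 8.08 to 8.51 and 7.90 to 8.60 in Tet2-KO mice. Cells at the gate's limit of 6 markers were 12.3% and 18% of cells in WT, and 13.2% and 14.7% in Tet2-KO mice. All 5 granulocyte/monocyte progenitor markers were detected there, with sums of 128 to 220.4 CPM in WT vehicle, 204 to 418 in WT IL1β, 180.3 to 301 in Tet2-KO vehicle and 163 to 298 in Tet2-KO IL1β mice. The 8 basophil markers summed to 28.2 to 64.7, 62.2 to 153, 27.2 to 34.1 and 30.4 to 69.5 CPM in the same order. In the erythroblast-like gate the granulocyte/monocyte progenitor markers summed to 106 to 212, 249 to 839, 208 to 550.0 and 167 to 282 CPM. In the MEP-like gate of Tet2-KO mice, basophil markers summed to 129 to 205 CPM with vehicle and 266 to 409.7 with IL1β. The 4 mast cell markers, Cma1, Mcpt4, Tpsab1 and Tpsb2, were at or near 0 in these 3 gates, with a sum of at most 3.19 CPM per mouse.

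Hashtag calls were unequal across classes, which touches the erythroid results most. In the CFU-E-like gate 8549 cells had no call against 4397 with one (66.0% without), and in the erythroblast-like gate 8321 against 1782 (82.4%). The share was 20.1% to 32.5% in the other 4 gates. Cells without a call cannot be given to a mouse, but they belong to a pool, and each group has 2 pools. Among them Tal1 averaged 164 CPM in the WT vehicle and 238 in the WT IL1β pools of the CFU-E-like gate, and 157 and 214 in Tet2-KO pools. In the erythroblast-like gate it averaged 200.4 and 322 in WT and 193 and 279 in Tet2-KO pools. Zfpm1 without a call averaged 234 and 187 CPM in WT and 230.3 and 191 in Tet2-KO pools of the CFU-E-like gate, and 305 and 252 in WT and 297 and 257 in Tet2-KO pools of the erythroblast-like gate. In both gates and genotypes the means of these cells were higher with IL1β for Tal1 and lower for Zfpm1. Many of them entered the fits under the hashtag ratio rule, which held 8661 CFU-E-like and 5615 erythroblast-like cells.

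The cells without a call were not a random sample of their gate. In CFU-E-like cells Klf1 was higher without than with a call in 8 of 8 pools (means of 209 and 182 CPM), as were Tal1 and Epor, while Gata2 was lower in 8 of 8 (27.1 and 50.6 CPM), as were Fli1, Nfe2 and Lmo2. With whole pools as replicates and these cells included, 5 member and gate pairs were called in WT and 1 in Tet2-KO mice, the Gata2 call in the HSC-like gate. The shares of all genes called were 4.55% and 2.04%.

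**Figure D4:**
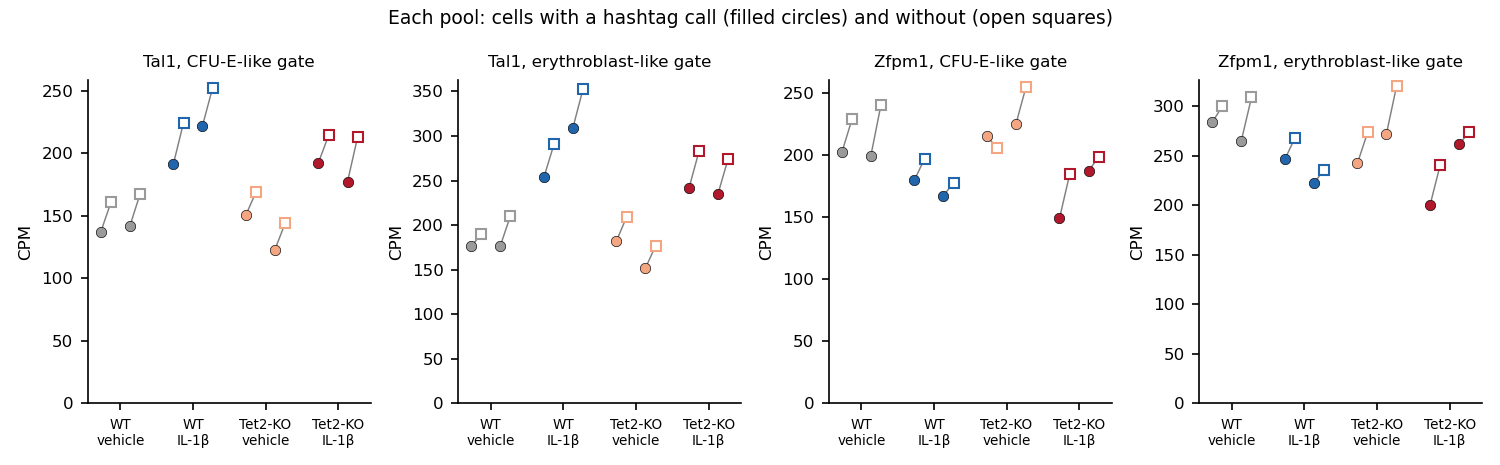
CPM of Tal1 and Zfpm1 per pool in the CFU-E-like and erythroblast-like gates, by group, for cells with a hashtag call (filled circles) and without (open squares). For cells without a call, mean Tal1 in WT pools of the CFU-E-like gate is 164 CPM with vehicle and 238 with IL1β.

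Gata2, the factor of early progenitors, was higher with IL1β in the HSC-like gate of Tet2-KO mice. The vehicle mice had 137, 43.4, 175 and 161 scaled CPM, from 81, 7, 118 and 82 UMIs, and the IL1β mice 245, 292, 242 and 245, from 37, 292, 110 and 181 UMIs. The groups did not overlap, with a log2 fold change of 0.87 (SE 0.198, adjusted p = 0.00393), where 12% of all genes were called. The call held when any 1 mouse was left out and under each of the 9 other settings tried, with adjusted p-values of at most 0.0275 in the latter. WT vehicle mice had 145, 245, 135 and 161 and WT IL1β mice 239, 355, 203 and 238, which overlapped through vehicle mouse 2. The WT log2 fold change of 0.68 (SE 0.219) did not pass (adjusted p = 0.0569), but it was called by DESeq2 (adjusted p = 0.0366), without a low-count filter (0.00966), with total UMIs (0.0269), under the hashtag ratio rule (0.0379), over pools (0.0377), without WT vehicle mouse 2 (0.0395) and without Tet2-KO vehicle mouse 2 (0.0173). Tet2-KO vehicle mouse 2 is in neither group of this comparison and enters only through the shared fit.

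In the megakaryocyte-like gate, Gata2 was 247, 92.7, 182 and 238 scaled CPM in WT vehicle and 265, 269.6, 291 and 294 in WT IL1β mice, without overlap, yet did not pass (log2 fold change 0.56, adjusted p = 0.224). Tet2-KO mice had 128, 110.0, 152 and 247 with vehicle and 216, 193, 322 and 299 with IL1β, which overlapped (log2 fold change 0.70, adjusted p = 0.0977), and this difference was called without Tet2-KO vehicle mouse 4 (0.97, adjusted p = 0.0301) or WT vehicle mouse 2 (0.70, adjusted p = 0.0489). WT vehicle mouse 2 is in neither group of that comparison and enters only through the shared fit. In the basophil-like gate, where the Gata2 level was highest, the changes were 0.05 (95% interval -0.28 to 0.38) and 0.23 (-0.11 to 0.56). Gata2 estimates were above 0 in 12 of 12 pairs of gate and genotype with TMM, as were those of 12.0% of the 6148 genes tested in every gate. Total UMIs left this count unchanged, but they moved the median of all genes up and could hardly lower it. Beside the HSC-like result, granulocyte/monocyte progenitor markers there summed to 1141 to 1357 CPM in WT vehicle, 1810.0 to 2886 in WT IL1β, 837 to 1738 in Tet2-KO vehicle and 1426 to 1994 in Tet2-KO IL1β mice. Basophil markers summed to 92.7 to 359.8, 260.0 to 317, 17.3 to 182 and 149.5 to 251 CPM. No mast cell marker of 4 was detected in this gate, and the part of the other markers was not tested.

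Nfe2 was higher with IL1β in 2 gates of Tet2-KO mice. In HSC-like cells, vehicle mice had 180.5, 130.1, 148 and 155 scaled CPM and IL1β mice 251, 191, 234 and 224, without overlap (log2 fold change 0.49, SE 0.149, adjusted p = 0.0280). In basophil-like cells, vehicle mice had 189, 127, 134 and 144 and IL1β mice 216, 235, 205 and 217 (log2 fold change 0.54, SE 0.134, adjusted p = 0.0281, beside 4.05% of all genes called). These groups did not overlap either. In WT mice the changes were 0.17 (adjusted p = 0.611) and 0.34 (0.144). The HSC-like call was lost without Tet2-KO vehicle mouse 2 (0.0533), 3 (0.0876) or 4 (0.0746), or IL1β mouse 1 (0.0570), 3 (0.0769) or 4 (0.0551), with 1 more marker required (0.133) and over pools (0.0826). The basophil-like call was lost without vehicle mouse 3 (0.162) or 4 (0.130), or IL1β mouse 2 (0.0927) or 4 (0.0551), under the hashtag ratio rule (0.129) and over pools (0.263). Granulocyte/monocyte progenitor markers in the basophil-like gate summed to 4259 to 7104 CPM in Tet2-KO vehicle and 3851 to 5201 in Tet2-KO IL1β mice. Detection of the gate's own 8 markers moved with the Tet2-KO groups as well. Cells held 6.73 of them with vehicle and 7.11 with IL1β (means over mice), and the mice did not overlap. Cells at the gate's limit of 5 markers were 13.6% and 6.46%. In WT mice these means were 6.67 and 6.78, and the mice overlapped. The part of this shift in the Nfe2 result was not tested.

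Fli1, an ETS factor of platelet formation, was higher with IL1β in the megakaryocyte-like gate of WT mice. Vehicle mice had 371, 247, 304 and 307 scaled CPM and IL1β mice 409, 472, 403 and 447. The groups did not overlap (log2 fold change 0.49, SE 0.130, adjusted p = 0.0323, beside 5.06% of all genes called). Tet2-KO mice had 362, 338, 348 and 334 with vehicle and 459.6, 359, 416 and 423 with IL1β, which overlapped (log2 fold change 0.26, adjusted p = 0.223). The WT call was lost without vehicle mouse 2 (adjusted p = 0.0925), 3 (0.0641) or 4 (0.0667), or IL1β mouse 2 (0.0720), 3 (0.0658) or 4 (0.0869), and also without a low-count filter (0.0740), under the hashtag ratio rule (0.0561) and over pools (0.226). Basophil markers in this gate summed to 19.9 to 56.7 CPM in WT vehicle and 52.2 to 117 in WT IL1β mice.

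**Figure D5:**
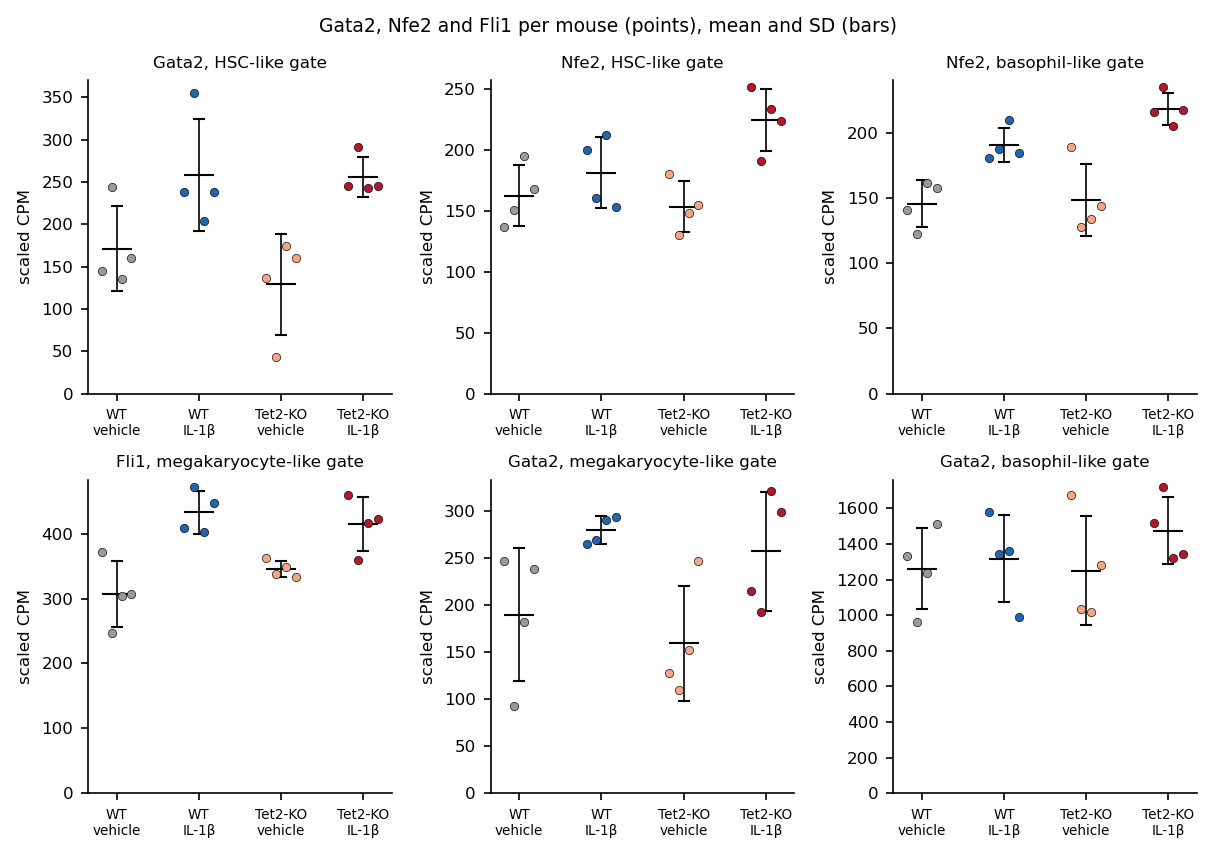
Scaled CPM per mouse of Gata2 and Nfe2 in the HSC-like gate, Nfe2 and Gata2 in the basophil-like gate, and Fli1 and Gata2 in the megakaryocyte-like gate, by group, with mean and SD. In Tet2-KO mice, Gata2 in HSC-like cells spans 43.4 to 175 with vehicle and 242 to 292 with IL1β.

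Klf1, Gata1, Epor, Gfi1b and Lmo2 gave no call in any gate where they were tested. In the CFU-E-like gate, Klf1, the erythroid zinc finger activator, was 209, 188, 173 and 186 scaled CPM in WT vehicle and 179, 187, 178 and 151 in WT IL1β mice, and 189, 160.4, 218 and 205 with vehicle against 160.3, 160.5, 169 and 172 with IL1β in Tet2-KO mice. Its log2 fold changes were -0.11 (95% interval -0.30 to 0.07) and -0.25 (-0.43 to -0.06, adjusted p = 0.0719). The second was called without Tet2-KO vehicle mouse 2 (log2 fold change -0.30, adjusted p = 0.0255). Klf1 estimates were below 0 in 6 of 6 pairs of gate and genotype with TMM, but in 3 of 6 with total UMIs. The share of all genes below 0 in these same pairs was not counted. Gata1 ranged from 98.6 to 149 scaled CPM over all 16 mice in this gate, with group means of 114, 121, 116.5 and 122 for WT vehicle, WT IL1β, Tet2-KO vehicle and Tet2-KO IL1β. Its changes were 0.05 (-0.15 to 0.25) in WT and 0.11 (-0.08 to 0.31) in Tet2-KO mice.

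Epor, through which erythropoietin signals, averaged 80.3 ± 10.95, 83.7 ± 10.3, 93.5 ± 9.42 and 84.3 ± 12.9 scaled CPM (SD) in the same 4 groups of the CFU-E-like gate, and its changes were 0.07 (95% interval -0.17 to 0.31) and -0.07 (-0.30 to 0.16). In erythroblast-like cells they were -0.11 in WT and 0.21 in Tet2-KO mice (adjusted p = 0.650 and 0.297). Gfi1b averaged 108 ± 20.7 scaled CPM in WT vehicle and 84.4 ± 30.5 in WT IL1β mice of the CFU-E-like gate (log2 fold change -0.31, adjusted p = 0.236), a difference that was called without WT IL1β mouse 1 (-0.58, adjusted p = 0.0151) and under the hashtag ratio rule (-0.47, adjusted p = 0.00793). Its estimates were below 0 in 10 of 12 pairs with TMM and 9 of 12 with total UMIs. With TMM, 22% of the 6148 genes tested in every gate were below 0 in at least 11, and the share for 10 was not counted. Lmo2 was above 0 in 6 and below 0 in 6 of 12 pairs (7 and 5 with total UMIs), with all estimates between -0.23 and 0.29.

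Fli1 in the erythroblast-like gate rested on few UMIs. Erythroblast-like cells held 3 to 30 Fli1 UMIs per mouse. Vehicle mice had 3.46, 10.3, 11.5 and 10.9 scaled CPM in WT and 14.2, 15.5, 8.42 and 6.17 in Tet2-KO. With IL1β the values were 8.75, 8.58, 12.4 and 29.3 scaled CPM in WT mice and 3.32, 4.22 and 3.49 in the 3 Tet2-KO mice, the latter from 7, 7 and 5 UMIs. In Tet2-KO mice every IL1β value lay below every vehicle value, and the log2 fold change of -1.35 (SE 0.469) did not pass (adjusted p = 0.0691), but it was called without a low-count filter (0.0230) and when WT vehicle mouse 1 (0.0436) or WT IL1β mouse 4 (0.0494) was left out. Those WT mice are in neither compared group and enter only through the shared fit. In WT mice the groups overlapped, with a change of 0.55 (adjusted p = 0.406). The test of the difference between the changes did not pass (-1.90, adjusted p = 1.00). The difference of -1.76 on the log2 scale between genotypes given IL1β (95% interval -2.74 to -0.79, unadjusted p = 0.000975 by edgeR) did not pass adjustment (0.240), but was called without a low-count filter (adjusted p = 0.00484). The megakaryocyte markers in this gate, 10 genes, summed to 21.6 to 469.5 CPM in WT IL1β and 19.3 to 63.2 in Tet2-KO IL1β mice.

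Genotype was compared within each treatment. Tet2-KO and WT mice differed in 0 of 54 member and gate pairs with vehicle, where 0.0104% of all genes were called, and in 0 of 54 with IL1β, where 0.0456% were. At an unadjusted p under 0.05, edgeR gave 1 pair with vehicle and 2 with IL1β, and DESeq2 called 0 in both. With vehicle the single pair was Epor in the megakaryocyte-like gate (log2 fold change 1.10, unadjusted p = 0.0235, adjusted p = 0.965). With IL1β the pairs were Fli1 in erythroblast-like cells, given above, and Zfpm1 in basophil-like cells (-0.60, unadjusted p = 0.0435, adjusted p = 0.853). Intervals bounded most of the differences. They lay within 1 log2 unit of 0 in 53 of 54 pairs with vehicle and 50 of 54 with IL1β, and within 0.5 in 33 and 32 of 54. For Tal1 in the CFU-E-like gate the genotype difference was -0.04 (-0.22 to 0.14) with vehicle and -0.17 (-0.35 to 0.01) with IL1β, and for Gata2 in the HSC-like gate -0.12 (-0.56 to 0.32) and 0.07 (-0.34 to 0.48).

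Whether the IL1β effect differed between genotypes was tested by the interaction, which called 0 of 54 pairs (0.00207% of all genes, 1 member pair at an unadjusted p under 0.05 by edgeR, 0 calls by DESeq2). That pair was Fli1 in erythroblast-like cells (-1.90, unadjusted p = 0.00472). For the pairs called in one or both genotypes the difference of the effects, Tet2-KO minus WT, was -0.13 (95% interval -0.38 to 0.13) for Tal1 in CFU-E-like and -0.08 (-0.38 to 0.22) in erythroblast-like cells. It was -0.06 (-0.36 to 0.24) for Zfpm1 in CFU-E-like and -0.08 (-0.54 to 0.37) in MEP-like cells, and 0.19 (-0.41 to 0.79) for Gata2 and 0.32 (-0.13 to 0.77) for Nfe2 in HSC-like cells. For Nfe2 in basophil-like and Fli1 in megakaryocyte-like cells it was 0.20 (-0.19 to 0.59) and -0.23 (-0.61 to 0.14). A call in 1 genotype alone was therefore not shown to be particular to it, and the intervals still allow differences of up to 0.79 for Gata2.

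Genes around the members were counted in 5 lists. Of 168 tested pairs of gate and partner or opposing factor, 6 were called up and 2 down with IL1β in WT, and 12 up and 2 down in Tet2-KO mice. These are 4.76% and 8.33% of the pairs, not above the 8.51% and 9.47% of all genes. Calls went both ways among LDB1, the SSBP proteins that bind it and the TAL1-related factor Lyl1. Ssbp2 was higher in HSC-like cells of WT mice (log2 fold change 0.59, adjusted p = 0.0393). Ssbp3 was higher in CFU-E-like cells of WT mice (0.31, adjusted p = 0.0150) and in erythroblast-like (0.36, adjusted p = 0.0350) and megakaryocyte-like (0.71, adjusted p = 0.0214) cells of Tet2-KO mice. Ldb1 was higher in erythroblast-like cells of Tet2-KO mice (0.40, adjusted p = 0.0340). Ssbp4 was lower in MEP-like cells of Tet2-KO mice (-0.78, adjusted p = 0.0136), and Lyl1 was lower in erythroblast-like cells of WT mice (-0.50, adjusted p = 0.0493). Lmo4, a LIM protein related to LMO2, was higher in HSC-like cells of WT mice (0.71, adjusted p = 0.0244) and MEP-like cells of Tet2-KO mice (1.03, adjusted p = 0.000913), and Mafg, a small MAF partner of NFE2, in erythroblast-like cells of WT mice (0.49, adjusted p = 0.0180). Ikzf1, a zinc finger factor of lymphoid and myeloid cells, was higher in CFU-E-like (0.32) and erythroblast-like (0.30) cells of WT mice. Spi1, the myeloid factor PU.1 that opposes GATA1, was lower in basophil-like cells of both genotypes (-0.73 and -0.58). Sox6, a repressor of embryonic globin, was higher with IL1β in the HSC-like gate of Tet2-KO mice (1.22, adjusted p = 0.000328) and also differed from WT IL1β mice there (1.24, adjusted p = 0.0222). List medians in single gates were 0.12 to 0.16 in WT and 0.13 to 0.36 in Tet2-KO mice.

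Erythropoietin and thrombopoietin signalling genes were called up in 12 and down in 1 of 85 pairs in WT, and up in 14 and down in 1 in Tet2-KO mice, with gate medians of 0.03 to 0.35 and 0.18 to 0.32, which is 15.3% and 17.6% of the pairs beside 8.51% and 9.47% of all genes. Cish, a feedback inhibitor induced by STAT5, was higher in CFU-E-like cells (log2 fold change 2.17 in WT, adjusted p = 0.0168, and 1.82 in Tet2-KO mice, 0.0123) and erythroblast-like cells (2.66 and 2.63). Stat5b, a transcription factor activated through the erythropoietin receptor, was higher in CFU-E-like cells of Tet2-KO mice (0.51, adjusted p = 0.00688). Tfrc, the transferrin receptor that brings iron into red cell precursors, was higher in CFU-E-like (0.95 and 0.56), erythroblast-like (0.87 and 0.69) and basophil-like cells (1.86 and 0.85). Pairs count a gene once per gate, so Cish and Tfrc each enter the calls of this list more than once.

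Erythroid target genes were called up in 6 and down in 7 of 124 pairs in WT, and up in 3 and down in 14 in Tet2-KO mice, with gate medians of -0.12 to 0.06 and -0.18 to 0.02. Their shares called, 10.5% and 13.7%, stand beside 8.51% and 9.47% of all genes. Globins, 4 genes of this list, made up 1 of the higher and 5 of the lower calls in WT, and 1 and 11 in Tet2-KO mice. Without them, 5 pairs were called up and 2 down of 103 in WT, and 2 up and 3 down in Tet2-KO mice, which is 6.80% and 4.85% of the pairs, below the shares of all genes. Rhag, a red cell membrane channel, was higher in erythroblast-like cells (0.61 in WT and 0.63 in Tet2-KO mice). Hba-a2, an alpha globin, was lower in CFU-E-like cells (-1.07 and -1.52), whereas Hbb-bt, a beta globin, was higher in HSC-like cells (1.71 and 1.40). Hbb-bt was the only gene of this list called higher in the HSC-like gate of Tet2-KO mice, where 2 others were called lower. Globin genes are near-identical copies whose reads may be split, and their RNA is known to spread between droplets, so their values are uncertain. Megakaryocyte target genes were called up in 2 and down in 0 of 60 pairs in WT, and up in 3 and down in 1 in Tet2-KO mice, with gate medians of -0.17 to 0.56 and -0.31 to 0.31. These are 3.33% and 6.67% of the pairs, not above the shares of all genes, and the calls included Selp in HSC-like cells (2.95 and 1.66). Basophil and mast cell target genes were called up in 3 and down in 5 of 52 pairs, and up in 5 and down in 4, with gate medians of -0.64 to 0.71 and -0.23 to 0.54 and with 15.4% and 17.3% of pairs called. Slc18a2, a monoamine transporter and the gene most like Gata2 across gates, was higher in HSC-like cells (1.14 and 0.76). In the same gate Cd63, a granule membrane protein, was lower (-0.94 and -0.74), as was Ifitm1 in Tet2-KO mice (-0.71). Ifitm1 was also lower in basophil-like cells (-0.99 and -1.07). Between genotypes with vehicle, 0 pairs of the 5 lists were called. With IL1β the calls were Sox6 in HSC-like cells and, in basophil-like cells, Fyb (0.78) and Ifitm1 (0.94).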

How the data were processed

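Bone marrow depleted of lineage-positive cells from 16 mice was profiled in 8 droplet libraries of 2 hashtagged mice each. The deposited matrices hold UMI counts per gene and hashtag, made by the authors, whose processing notes name Cell Ranger 3.1.0, Seurat 3.2.3 and mm10. Depth in kept cells was 52915002 to 95326908 UMIs per library.

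Cells with at least 750 genes and at most 10% mitochondrial UMIs were kept, and were given to mice by HTODemux in Seurat 5.3.0. Doublets between hashtags were dropped, whereas those within a mouse cannot be seen. Cells passing gates of more than 1 lineage were left out, erythroblast-like was taken over CFU-E-like, and MEP-like over HSC-like. The gate limits were set after the marker counts had been seen, and the members and lists were chosen with earlier results of these data known.

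UMIs were summed per mouse and gate, with at least 10 cells. Sums were tested across all 4 groups with edgeR 4.0.16 (quasi-likelihood, TMM, filterByExpr) in R 4.3.3. Intervals use the degrees of freedom of that test (residual plus prior, 20.9 to 30.4). In 11 of 270 member tests, of which 0 were called, edgeR raised p to its Poisson bound, so that p exceeds what the estimate and SE give. Calls have a Benjamini-Hochberg adjusted p under 0.05. Scripts were tested on simulated data. Adjusted p-values come from these fits or, where stated, from DESeq2 1.42.0. The labels name mice as replicates, but 2 mice share each library. Alternatives were DESeq2, no low-count filter, mouse number as a block, 1 more marker per gate, at least 25 cells, a hashtag ratio of 3, pools as replicates, each mouse left out and, added after the data had been seen, total UMIs and sex read from Xist and Y-linked genes.

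Named genes were the 10 members in every gate and contrast, genes from among the up to 3 per list, gate and contrast with the smallest adjusted p of those called (not all of them are named, and which are was chosen with their values seen), and the 2 genes most like each member among those with at least 10 CPM in 1 of 40 means. Of the 7 T/NK markers 6 were found, and of the 30 erythroid targets 29. Upstream sequences come from RefSeq, GRCm38.p6. Some genes of the marker and pathway lists are counted with their lists but not reported here by name.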

Additional observations from a re-analysis of the deposited data

Results flagged for a closer look

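For each member, gate and group of 4 mice, and for the share of cells in each gate, the highest or lowest mouse was compared with the others. Of 230 groups checked, 13 had 1 mouse far from the other 3, where chance alone gives about 5% of groups. The cause was not tested for any of them.

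In the HSC-like gate, Fli1 was 281 scaled CPM in WT IL1β mouse 4 (33 UMIs in 28 cells), against 127 to 147 in the others. Gata2 was 292 in Tet2-KO IL1β mouse 2, against 242 to 245, and this group lay above its vehicle group also without that mouse. In the MEP-like gate, Nfe2 was 59.5 in WT vehicle mouse 2, from 4 UMIs in 14 cells, against 174 to 197. Gata2 was 447 in WT IL1β mouse 1, against 391 to 400.1, and 375 in Tet2-KO vehicle mouse 4, against 318 to 327. Tal1 was 126 in WT IL1β mouse 2, against 171 to 178. Lmo2 was 453 in Tet2-KO IL1β mouse 1, from 102 UMIs in 35 cells, against 390.5 to 401.

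In the erythroblast-like gate, Tal1 was 231 scaled CPM in WT vehicle mouse 2, the control mouse nearest to the IL1β values, from 67 UMIs in 33 cells, against 175 to 184. Fli1 was 3.46 in WT vehicle mouse 1 (7 UMIs), against 10.3 to 11.5. In the megakaryocyte-like gate, Nfe2 was 291 in WT vehicle mouse 1, against 121 to 139, and Zfpm1 was 360.0 in WT IL1β mouse 1, against 260.04 to 273. In the basophil-like gate, Gfi1b was 76.4 in WT vehicle mouse 2, from 5 UMIs in 24 cells, against 22.8 to 26.0. Tet2-KO vehicle mouse 2 had 4.45% of its assigned cells in the megakaryocyte-like gate (56 cells), against 1.49% to 1.65% in the other 3 mice.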

How the results depend on the processing

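The 11 member calls were recomputed under each alternative, which gave 273 values. All kept their direction, 228 were called and 45 were not. Many of these values left out a mouse of a group outside the comparison. Such a mouse is in neither compared group, and leaving it out lost 0 calls. All 45 losses fell under the other values, so the 228 overstates how firm the calls are. Without 1 mouse, WT calls ranged from 2 (without IL1β mouse 3) to 7 (without IL1β mouse 1), and Tet2-KO calls from 2 (without vehicle mouse 3, vehicle mouse 4 or IL1β mouse 2) to 8. With pools as replicates, which leaves 2 libraries per group, 1 Tet2-KO call remained, Gata2 in HSC-like cells, and WT had 5. The share of all genes called was then 2.04% in Tet2-KO and 4.55% in WT mice, against 9.47% and 8.51% in the main fits. Without a low-count filter, Tet2-KO and WT mice differed with IL1β in 1 pair, Fli1 in erythroblast-like cells (log2 fold change -1.74, adjusted p = 0.00484), beside 0.433% of all genes. Otherwise the genotype and interaction comparisons gave 0 calls under every alternative tried. In WT and Tet2-KO mice, DESeq2 gave 5 and 7 calls, no low-count filter 5 and 9, sex as a term 4 and 7, total UMIs 5 and 7, 1 more marker 5 and 5, and at least 25 cells 5 and 7. Of all genes, DESeq2 called 6.82% and 6.72%, no low-count filter 5% and 5.36%, and sex as a term 8.84% and 9.06%. Total UMIs called 10.5% and 10.8%, 1 more marker 7.28% and 7.14%, and at least 25 cells 8.32% and 8.87%. The hashtag ratio rule gave 6 and 5, beside 9.31% and 8.98% of all genes. It kept with their mouse only 1.35% to 20.6% of the assigned cells of 1 mouse in each of the 4 libraries of mice 1 and 2. Its calls and the main calls therefore do not compare the same mice. Sex, read from the data, and total UMIs were chosen after the data had been seen.

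With mouse number as a block, 4 calls were made in WT and 8 in Tet2-KO mice, beside 7.41% and 8.25% of all genes. Gata2 in megakaryocyte-like cells was gained in Tet2-KO mice (0.72, adjusted p = 0.0176). Deviations of same-numbered mice of different groups had median correlations of -0.07 to 0.04 by gate. That check compares single numbers, and cannot show whether the libraries of mice 1 and 2 differ together from those of mice 3 and 4. The hashtag ratio rule kept with their mouse 15.9% to 41.8% of assigned cells in the former libraries and 77.4% to 97.3% in the latter. Whether these libraries share an effect was not tested by itself. The mice of a library share its preparation, and their deviations had medians of -0.31 to 0.02, against -0.56 to -0.40 for mice of the same group in different libraries. Deviations were taken from the group's own mean, which pushes correlations within a group below 0. Values near 0 therefore do not mean that mice were independent. In every gate the median was higher within a library than between libraries, while the fits by mouse treat the mice as independent. Depth limits Fli1, Gata2 and Klf1 where they are low, and erythroid cells with a hashtag call are a minority of their gates.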
